A study of Mus musculus with 10 samples.

Results

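Hair keratins and keratin-associated proteins were examined in mouse gingival epithelium as a set of 71 genes, out of 49164 genes that had a count given in the deposited table. A gene was taken as a member by its name alone, namely every Krtap gene together with the type I hair keratins Krt31, Krt32, Krt33a, Krt33b, Krt34, Krt35 and Krt36 and the type II hair keratins Krt81, Krt82, Krt83, Krt84, Krt86 and Krt87. There were 58 keratin-associated protein genes, 7 type I and 6 type II keratin genes, and none was blank in the table. The samples were 5 palatal libraries, from the gum facing the palate, and 5 buccal libraries, from the gum facing the cheek, each of polyadenylated RNA from epithelium peeled off after Dispase digestion. The labels name no genotype, strain, age, sex, treatment or microbial status for either side. The series' design text describes a comparison of pools of germ-free and of specific-pathogen-free animals, which was not analysed here. Since the labels tie no library to an animal, the p-values reflect the variation among libraries, and that variation may be technical only.

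Hair keratins are the intermediate filament proteins of hair, nail and the horny papillae of the tongue. A type I keratin pairs with a type II keratin to form the filament, and keratin-associated proteins, which are small and rich in either cysteine or glycine and tyrosine, form the matrix that cross-links those filaments in the hair shaft. In the mouse the type I genes and many Krtap genes lie in a cluster on chromosome 11, the type II genes on chromosome 15 and further Krtap clusters on chromosomes 16, 10 and 7. Gingiva bears no hair, and its usual keratins are of the soft epithelial kind.

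Total counts were 25868777 to 35583168 in palatal and 29317011 to 37234192 in buccal libraries. The oral keratinocyte keratins used to check the tissue label, Krt4, Krt5, Krt13, Krt14 and Krt76, together reached 95400 to 105000 CPM (counts scaled by TMM library sizes and given per 1e6) in palatal and 116000 to 137000 CPM in buccal libraries. The members together held 68.5 to 74.7 CPM of raw counts in palatal libraries, against 55.2 to 67.0 CPM in buccal libraries. Of 14062 genes tested over the whole table with edgeR's quasi-likelihood F-test at a Benjamini-Hochberg adjusted p of 0.05, 38.9% were called, 18.7% higher and 20.3% lower in palatal. In bulk tissue of this kind, fewer cells of a type and less RNA per cell cannot be told apart.

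The stretches just upstream of the start sites are shown for 6 members on which the results turn and for Krtap13-1, the chromosomal neighbour of Krtap13. Each is 120 bases ending at the base before the annotated start, written 5′ to 3′ on the gene's strand, from RefSeq on GRCm38.p6, an older build than the GRCm39 the submitters' processing notes name. Capitals mark the TATA box letters TATAAA or TATATAA.
Krt84 (chr15:101532821-101532940, minus strand): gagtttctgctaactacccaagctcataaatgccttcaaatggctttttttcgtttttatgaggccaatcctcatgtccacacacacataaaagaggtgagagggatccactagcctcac
Krt32 (chr11:100088270-100088389, minus strand): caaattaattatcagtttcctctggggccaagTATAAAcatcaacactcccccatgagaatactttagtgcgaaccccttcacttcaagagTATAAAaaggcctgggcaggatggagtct
Krt36 (chr11:100105627-100105746, minus strand): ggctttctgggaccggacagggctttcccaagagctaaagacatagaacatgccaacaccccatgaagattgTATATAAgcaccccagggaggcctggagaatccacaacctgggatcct
Krtap3-3 (chr11:99550864-99550983, minus strand): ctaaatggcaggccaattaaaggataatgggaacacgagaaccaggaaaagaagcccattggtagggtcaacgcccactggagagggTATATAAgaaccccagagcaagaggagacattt
Krtap3-2 (chr11:99556854-99556973, minus strand): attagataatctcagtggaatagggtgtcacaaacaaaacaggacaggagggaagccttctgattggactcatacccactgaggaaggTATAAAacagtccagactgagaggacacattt
Krtap13 (chr16:88751629-88751748, minus strand): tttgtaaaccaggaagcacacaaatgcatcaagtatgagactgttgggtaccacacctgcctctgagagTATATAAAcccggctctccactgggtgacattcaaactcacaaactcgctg
Krtap13-1 (chr16:88728742-88728861, plus strand): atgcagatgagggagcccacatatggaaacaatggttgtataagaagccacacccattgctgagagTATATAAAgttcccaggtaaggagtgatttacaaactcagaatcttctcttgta

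Palatal gingiva carried more RNA of the type II keratin Krt84 and of 3 keratin-associated protein genes, and less of the type I keratins Krt32, Krt36 and Krt35. Most of the set was silent, since 40 of the 71 members (56.3%) had no count in any of the 10 libraries, beside 40.6% of all genes in the table. Among genes typed as protein-coding by GENCODE identifier, 39 of 70 members (55.7%) were silent, beside 16.5% of 21876 genes. The filter on low counts left 7 members in the test, and 64 members could not be tested there. Of those 7, edgeR called 4 higher and 3 lower in palatal, beside 38.9% of all tested genes called, but 2 of the 7 entered the test through 1 side alone, Krtap13 through its palatal and Krt35 through its buccal libraries. A gene that enters so had to differ, and these counts over the 7 are given as a description. The palatal and buccal libraries of each of the 7 did not overlap, beside 28.3% of all tested genes. For Krtap13 and Krt35 this too followed from how they entered the test, so it is not informative for those 2.

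Krt84, the type II hair keratin also known from the tongue's filiform papillae, had 36.7, 36.9, 29.6, 33 and 31.7 CPM in palatal libraries 1 to 5, against 7.66, 9.52, 6.12, 7.64 and 10.7 CPM in buccal libraries 1 to 5. Every palatal library lay above every buccal library. The means were 33.6 ± 3.17 CPM in palatal and 8.33 ± 1.79 CPM in buccal libraries (SD, n = 5 each), a 4.03-fold difference and a log2 fold change of 2.01 ± 0.13 (SE; edgeR adjusted p = 1.937e-08). Its raw counts were 828 to 1156 in palatal and 190 to 402 in buccal libraries, the most that any type II member had.

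The other type II members were near the limit of detection. Krt82, a keratin of the hair cuticle, had 30 counts over the palatal and 19 over the buccal libraries, and Krt83, a cortex keratin, had 15 palatal and 14 buccal counts (exact two-sided permutation p = 0.0556 for Krt82 and p = 0.675 for Krt83). Krt86, another cortex keratin, had 6 palatal and 4 buccal counts (exact permutation p = 0.603). These p-values are unadjusted, and the smallest p that 5 libraries against 5 allow is 0.00794. Krt87 had 3 counts on each side and Krt81 had none. No difference was detected in Krt82, Krt83 or Krt86, and low counts limit what could be seen in these 5 genes.

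Krt32, the type I keratin of the hair cuticle, ran the other way. Its level was 12.0, 14.5, 14.3, 19.7 and 15.8 CPM in palatal libraries 1 to 5, against 38.5, 33.9, 38.7, 46.1 and 38.3 CPM in buccal libraries 1 to 5. The highest palatal library was below the lowest buccal library. Krt32 averaged 15.3 ± 2.82 CPM in palatal and 39.1 ± 4.39 CPM in buccal libraries (SD, n = 5 each), a log2 fold change of -1.36 ± 0.12 (SE; edgeR adjusted p = 3.663e-07). An antisense gene, Gm11571, overlaps Krt32 and had 14 palatal and 29 buccal counts, and whether the authors' counting used the strand is not given in the sources used here.

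Krt36 and Krt35, the next 2 genes along the chromosome from Krt32, also fell in palatal. Krt36, known from tongue papillae and the hair cortex, had 0.828, 0.734, 0.734, 0.637 and 0.758 CPM in palatal libraries 1 to 5, against 1.83, 1.05, 1.58, 2.21 and 2.00 CPM in buccal libraries 1 to 5. The palatal values were tightly grouped and the buccal values spread more widely, without overlap. Its log2 fold change was -1.23 ± 0.21 (SE; edgeR adjusted p = 0.00024). Krt35, an early keratin of the hair matrix and cuticle, averaged 0.256 ± 0.0446 CPM in palatal and 0.489 ± 0.122 CPM in buccal libraries (SD, n = 5 each), from 6 to 9 and 10 to 25 counts per library. The sides were close at their edges, at 0.319 CPM in the highest palatal and 0.328 CPM in the lowest buccal library. The log2 fold change of Krt35 was -0.94 ± 0.26 (SE; edgeR adjusted p = 0.009683). All 5 buccal libraries and 0 palatal libraries of Krt35 reached the 0.334 CPM (of raw library totals) that the filter asks of 5 libraries, so its test rests on a gene let in by its higher side. In the fit without the filter the edgeR adjusted p of Krt35 was 0.0384.

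The counts of Krt36 and Krt35 were set against those of Krt32 within each library. The Krt36 to Krt32 ratio was 0.0324 to 0.0689 in palatal and 0.031 to 0.0521 in buccal libraries, and the Krt35 to Krt32 ratio was 0.0137 to 0.0198 in palatal and 0.00969 to 0.0174 in buccal libraries. Both ranges overlapped. The Krt84 to Krt32 ratio, in contrast, was 3.05, 2.55, 2.07, 1.68 and 2.00 in palatal libraries 1 to 5, against 0.199, 0.281, 0.158, 0.166 and 0.279 in buccal libraries 1 to 5. These ratios are of raw counts, without correction for gene length, and were chosen after the values were seen, so they carry no test.

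**Figure D1:**
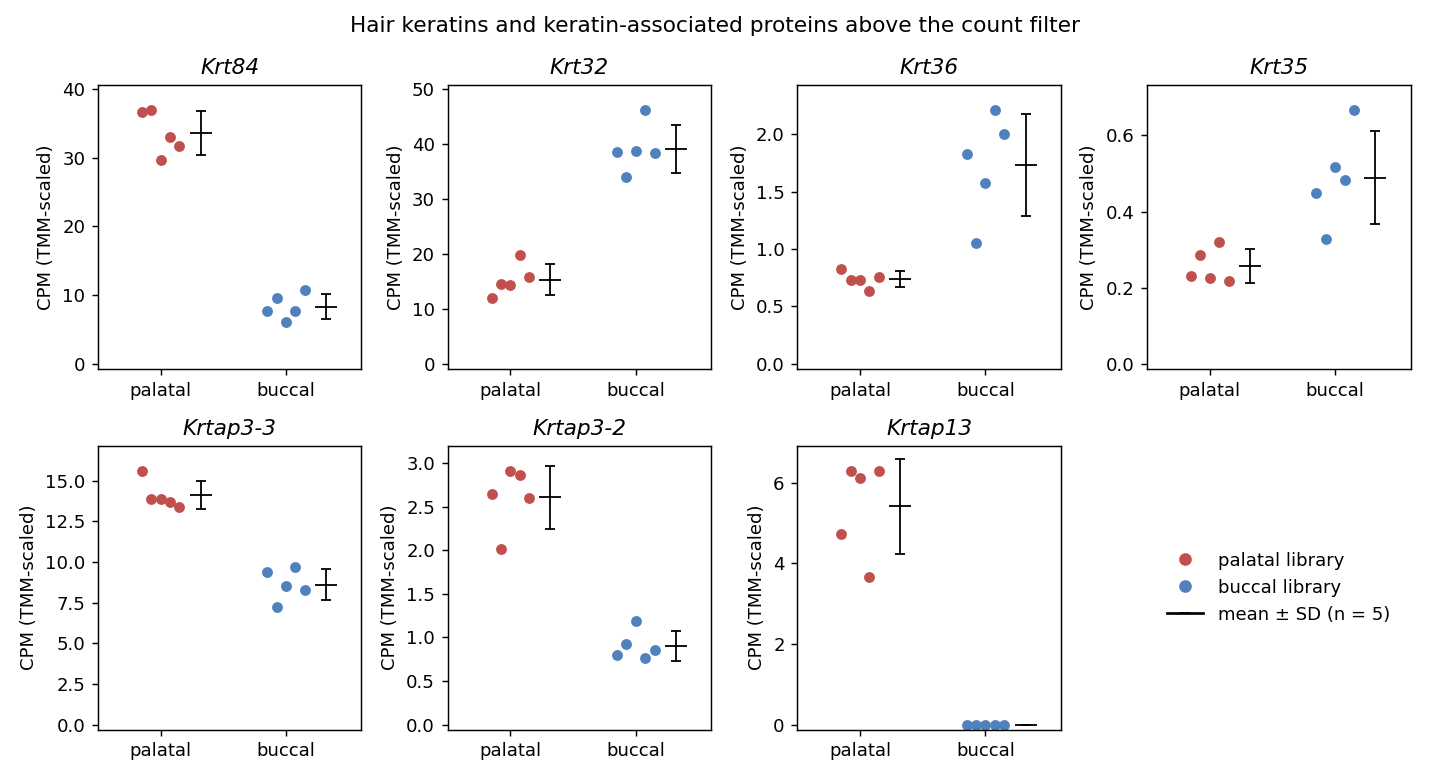
Level in CPM (TMM-scaled, linear axes) of each member above the count filter, with 1 point per library, palatal on the left and buccal on the right, and bars for mean ± SD (n = 5 each). Krt84, Krtap3-3, Krtap3-2 and Krtap13 lie higher in palatal and Krt32, Krt36 and Krt35 lower, with no overlap in any panel.

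Krt34, a type I cortex keratin below the filter, had 4, 9, 4, 7 and 4 counts in palatal libraries 1 to 5, against 0, 0, 0, 1 and 0 counts in buccal libraries 1 to 5. The sides did not overlap, with an exact permutation p of 0.00794, the smallest possible. The ratio of the summed counts, scaled for library size, was 29.7 with a 95% interval of 4.92 to 1220 (exact binomial, counting error only). Of the genes next to it on chromosome 11, Krt33b had no counts and Krt31 had 23 palatal and 38 buccal counts. Krt32, Krt35 and Krt36, which lie beyond Krt31, were lower in palatal. Krt34 was also called higher when the count filter was dropped (log2 fold change 4.22 ± 0.86, SE; edgeR adjusted p = 4.387e-05), where 19.4% of 29221 genes were called, 9.66% higher and 9.77% lower. In that fit 6 members were higher and 3 lower, the additions being Krt34 and Krtap13-1. Windows of 100 bases shared with other transcripts made up 17.5% of the Krt34 transcript, so its count is uncertain by an amount that was not measured.

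The remaining type I members had few counts. Krt31, a cortex keratin, had 23 palatal and 38 buccal counts (exact permutation p = 0.151). Krt33a, of the same group, had 3 palatal and 12 buccal counts (exact permutation p = 0.0556). Krt33b had none in any library. Neither Krt31 nor Krt33a passed the threshold, also without the count filter (edgeR adjusted p = 0.4146 and 0.2016).

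Among the keratin-associated proteins, 38 of 58 were silent, 15 had 1 to 9 counts over all libraries and 5 had 10 or more. Their summed counts were 3408 in palatal and 1595 in buccal libraries, and 3 genes, Krtap3-3, Krtap3-2 and Krtap13, made up nearly all of these. Krtap3 genes encode high-sulfur proteins of the hair cortex.

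Krtap3-3 was 15.6, 13.9, 13.9, 13.7 and 13.4 CPM in palatal libraries 1 to 5, against 9.36, 7.26, 8.51, 9.67 and 8.28 CPM in buccal libraries 1 to 5. It was present in all 10 libraries at a steady level within each side. The means were 14.1 ± 0.882 CPM in palatal and 8.62 ± 0.955 CPM in buccal libraries (SD, n = 5 each), with a log2 fold change of 0.71 ± 0.09 (SE; edgeR adjusted p = 1.692e-05). Krtap3-2, the adjacent gene, was 2.65, 2.01, 2.91, 2.87 and 2.60 CPM in palatal libraries 1 to 5, against 0.804, 0.92, 1.19, 0.76 and 0.852 CPM in buccal libraries 1 to 5. It too was higher in every palatal than in every buccal library, with a log2 fold change of 1.52 ± 0.17 (SE; edgeR adjusted p = 4.643e-06).

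The pair shares sequence, with 36.7% of 100-base windows of the Krtap3-3 transcript also found in Krtap3-2 and 25.1% of those of Krtap3-2 found in Krtap3-3. How the authors' counting divided such reads is not given in the sources used here, so the division between them is uncertain. The Krtap3-2 to Krtap3-3 ratio of counts was 0.145 to 0.209 in palatal libraries, against 0.0786 to 0.14 in buccal libraries. Krtap3-1, the third gene of the row, had 6 palatal counts and 1 buccal count.

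Krtap13, of the high-sulfur class, was counted in palatal libraries alone. It had 143, 197, 217, 92 and 174 counts in palatal libraries 1 to 5, against 0 in each buccal library. The palatal level was 5.42 ± 1.18 CPM (SD, n = 5), and the lowest palatal library was still 3.66 CPM. Taking 3 counts, or 0.0189 CPM, as the floor for all buccal libraries together, Krtap13 was at least 291-fold higher in palatal (edgeR adjusted p = 2.606e-08, in a test it entered through its palatal libraries alone). Of its transcript, 16.9% of 100-base windows were shared with other genes, 2310057N15Rik and Gm5965 holding most of these.

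**Figure D2:**
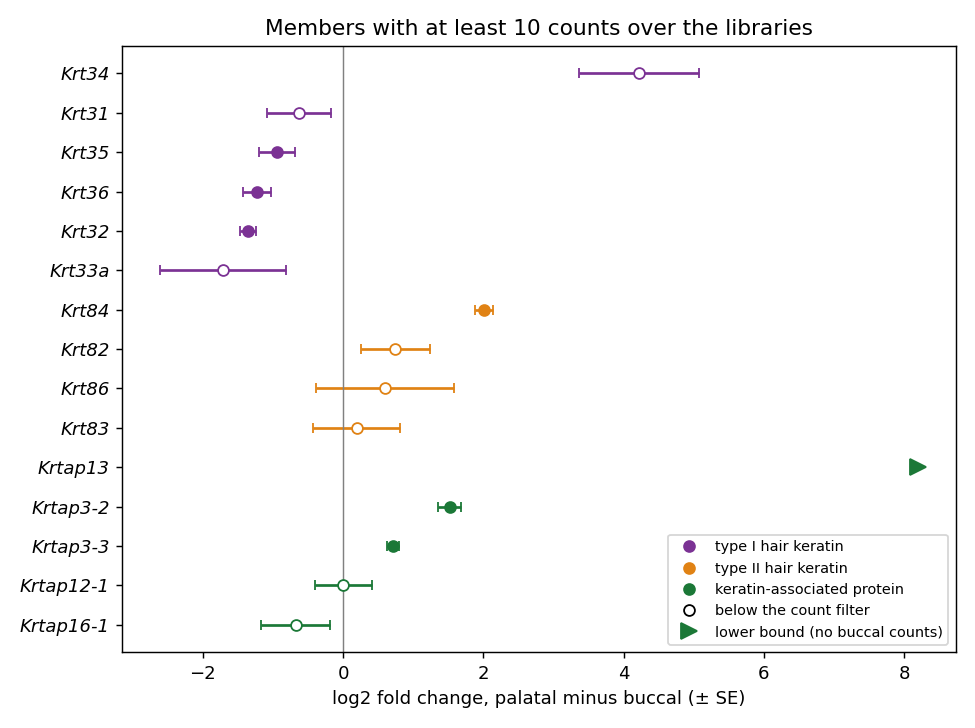
Log2 fold change, palatal minus buccal, with its SE, for the members with at least 10 counts, where filled points passed the count filter, open points come from the fit without that filter, and the arrowhead is the lower bound of 8.19 for Krtap13. Krt32, Krt36 and Krt35 lie left of 0 while Krt84, Krt34 and the Krtap3 genes lie right of it.

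Krtap12-1 and Krtap16-1 were the only other keratin-associated protein genes with 10 or more counts. Krtap12-1, a cuticle high-sulfur gene, had 39 palatal and 42 buccal counts (exact permutation p = 0.937). Krtap16-1 had 20 palatal and 35 buccal counts (exact permutation p = 0.278). Neither gene had a difference beyond the spread of its libraries that these counts could show. Krtap12-1 lies inside the span of Tspear, which had 88 palatal and 28 buccal counts.

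Another 16 members had 1 to 9 counts, 25 in palatal and 10 in buccal libraries in all, and 10 of these members had a single count. Of the 16, 9 were counted in palatal alone, 4 in buccal alone and 3 in both. Krtap13-1, beside Krtap13, had 1, 2 and 3 counts in palatal libraries 3, 4 and 5 and none elsewhere. Krtap13-1 was called higher in the fit without the count filter (edgeR adjusted p = 0.0461), from 6 counts in all and with the sides overlapping at 0. DESeq2's Wald test called 5 members higher, where that edgeR fit called 6, beside 2842 of 29221 genes higher with DESeq2. These 5 included the 4 called higher in the main test, and the remaining member was not listed. Single counts carry little information, and which side such a member appears in was not tested.

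The silent share is given by class and by chromosome, without a test. With the Krtap families sorted by their usual class names, 13 of 16 high-glycine-tyrosine genes (81.2%), 13 of 17 ultrahigh-sulfur genes (76.5%) and 8 of 18 high-sulfur genes (44.4%) had no counts. Another 7 Krtap genes were not classed, of which 4 (57.1%) were silent and Krtap16-1 had 10 or more counts. The 4 genes that passed 10 counts with a class, Krtap3-2, Krtap3-3, Krtap12-1 and Krtap13, were all high-sulfur. Of the hair keratins, 2 of 13 (15.4%) were silent. Of 27 Krtap families by number, 12 had no count in any member.

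A silent member had 0 counts in all 10 libraries, which allows up to 0.00971 CPM over both sides (3 counts, counting error only). Of the 40 silent members, 22 had no 100-base window in common with another transcript and none shared 50% or more. Silent Krtap10-4, Krtap10-10, Krtap14, Krtap15 and Krtap24-1 overlap other annotated genes. How reads in such overlaps were counted is not given in the sources used here, so that limit is less sure for them. All 5 Krtap5 genes of chromosome 7 were silent, as were 19 of 25 members on chromosome 16 (76.0%) and 12 of 30 on chromosome 11. On chromosome 15, 1 of 6 was silent, on chromosome 10, 2 of 3 and on chromosome 1, 1 of 2.

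On chromosome 16 the 6 members with counts had 833 counts in palatal and 0 in buccal libraries, 823 of them from Krtap13. Krtap13 and Krtap13-1 stand in a run with genes that have clone names, which are described by their counts. 2310061N02Rik had 16, 26, 18, 10 and 29 counts in palatal libraries 1 to 5, against none in any buccal library. 2310034C09Rik had 203, 343, 345, 151 and 295 counts in palatal libraries 1 to 5, against 0, 0, 1, 0 and 0 in buccal libraries 1 to 5. Farther along, 2310057N15Rik had 7 palatal and 2 buccal counts and Gm5965 had 3 palatal counts and 1 buccal count, while 2310079G19Rik had none on either side.

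Between Cldn8 and Tiam1, the genes that flank the chromosome 16 cluster, 37 RefSeq protein-coding genes had a count given. Other RefSeq genes there had none given, and nothing can be said of them. Of the 37, 11 genes had counts, 2280 in palatal and 4 in buccal libraries in all. The flanking genes were counted on both sides. Cldn8, a tight junction gene, had 1350 palatal and 962 buccal counts (log2 fold change 0.59, edgeR adjusted p = 0.004927), and Tiam1, a Rac exchange factor gene, had 62739 palatal and 71792 buccal counts (log2 fold change -0.10, edgeR adjusted p = 0.2601). Gene order is that of RefSeq on GRCm38.p6.

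**Figure D3:**
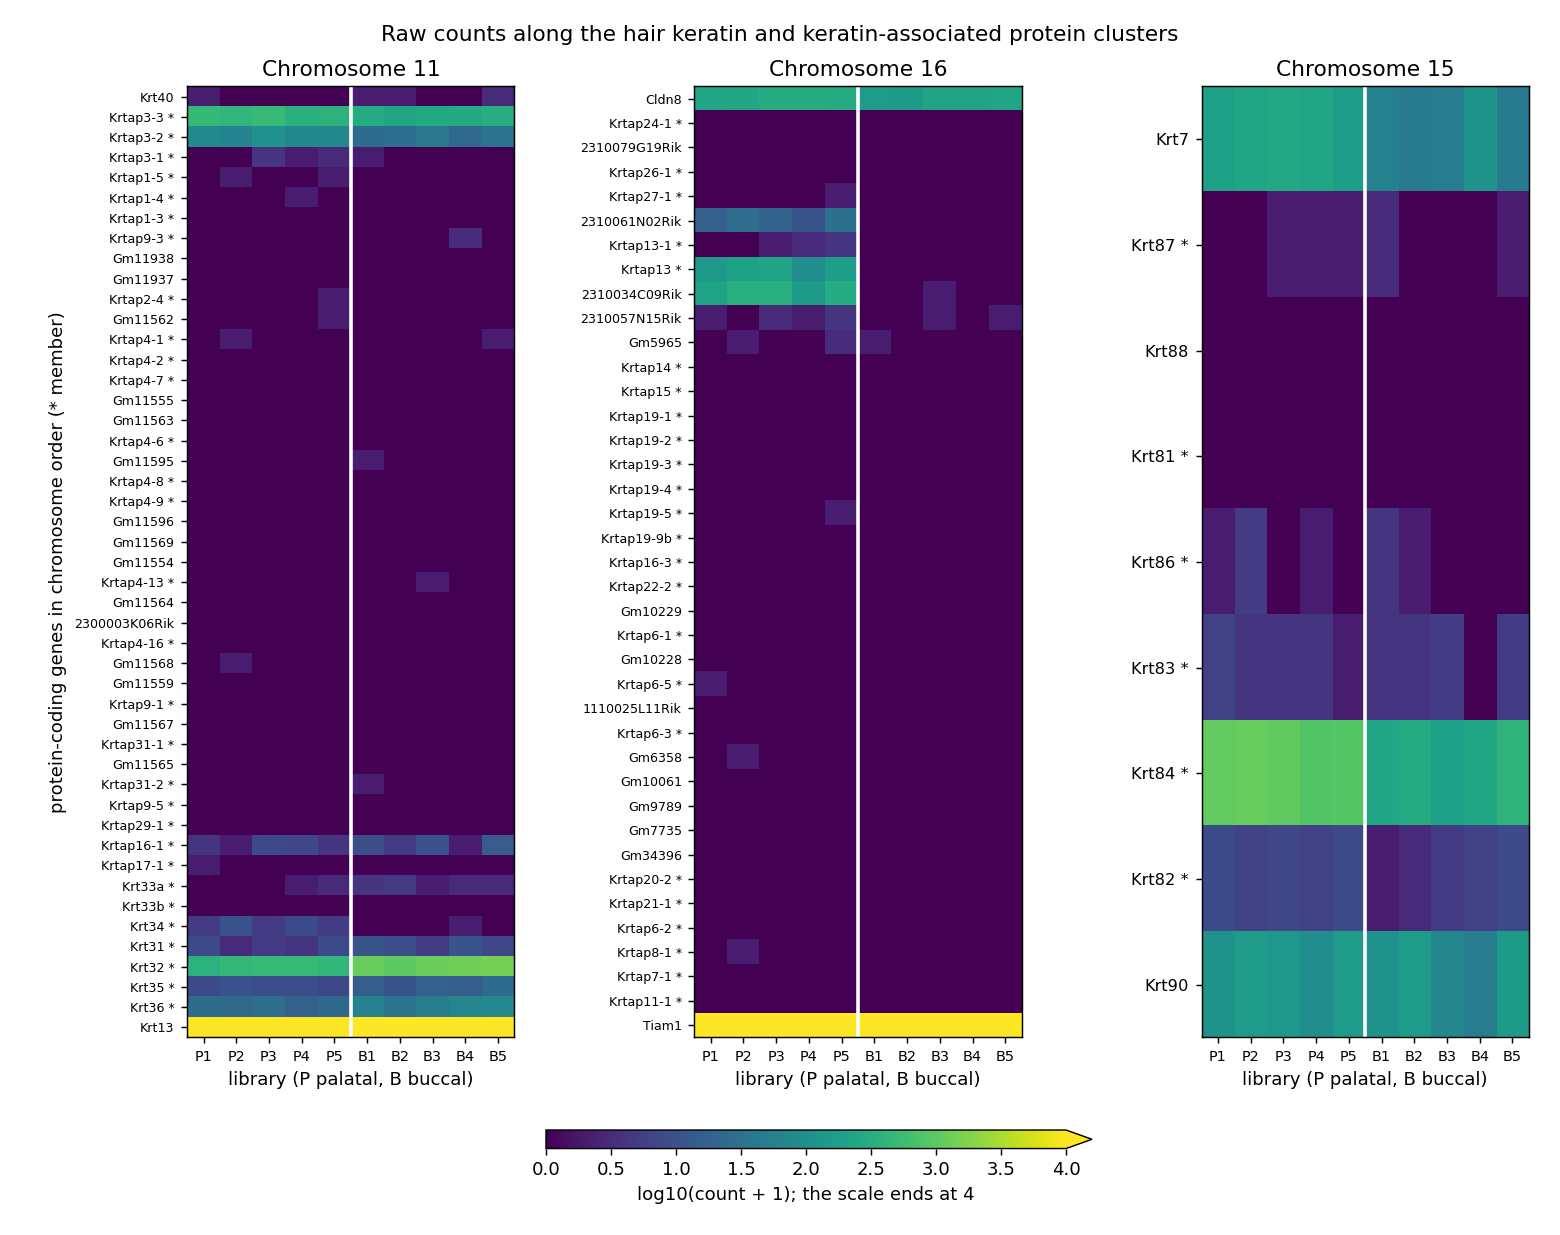
Raw counts as log10(count + 1) for each protein-coding gene with a count given, in chromosome order, members starred. There is 1 column per library, palatal left of the white line and buccal right of it. RefSeq genes without a count given are not drawn. On chromosome 16 the counts sit in a short run around Krtap13 on the palatal side, with Cldn8 and Tiam1 counted on both sides.

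How the members' counts were divided also differed between the sides. Krt84 took 45.8 ± 3.11% of the members' counts in palatal and 13.9 ± 3.35% in buccal libraries (SD, n = 5 each). Krt32 took 20.8 ± 3.62% in palatal and 64.8 ± 2.61% in buccal libraries. Krtap3-3 held 19.2 ± 1.33% in palatal and 14.3 ± 0.944% in buccal libraries, and Krtap13 held 7.43 ± 1.75% in palatal libraries and 0% in buccal libraries. These are shares of counts, which also depend on transcript length.

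By family, type I genes had 2459 counts in palatal and 6608 in buccal libraries, and type II genes had 5074 in palatal and 1381 in buccal libraries. The hair keratins of both types together had 7533 counts in palatal and 7989 in buccal libraries. The members' share of all counts was 72.0 ± 2.86 CPM in palatal and 61.2 ± 4.73 CPM in buccal libraries (SD, n = 5 each).

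**Figure D4:**
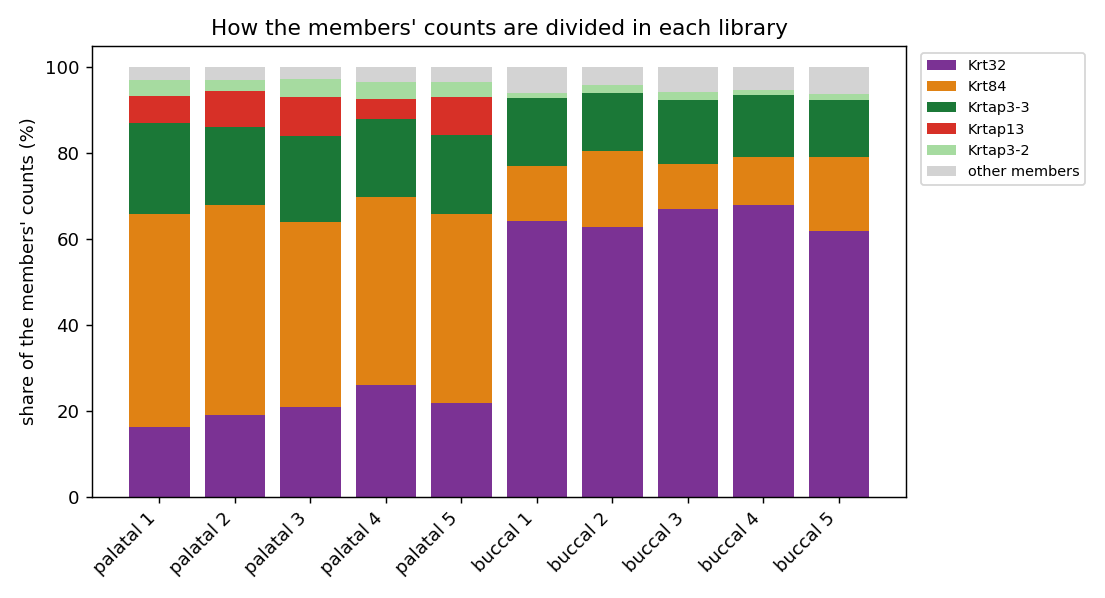
Share of the members' raw counts (percent, stacked to 100) held by Krt32, Krt84, Krtap3-3, Krtap13, Krtap3-2 and all other members, with 1 bar per library and palatal bars on the left. Krt84 holds 43.1 to 49.6% in palatal and 10.6 to 17.7% in buccal libraries, and Krt32 holds 16.3 to 26.1% in palatal and 61.8 to 67.9% in buccal libraries.

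Promoter sequence was found for 58 of the 71 members in the RefSeq table, each a window of 300 bases, 250 before the start and 50 after it. TATAAA was present on either strand in 47 of 58 windows, beside 13.6% of 32851 promoters of all genes, and TATATAA in 19 of 58, beside 3.24%. The 2 spellings overlap in TATATAAA, and 56 of 58 members held at least one. In 53 of 58 a match began 75 to 20 bases before the start, beside 4.71% of all promoters. The letters were in 33 of 34 silent members and in 23 of 24 members with counts. The Lef1 and Tcf core CTTTGA was in 19 of 58 windows, beside 16% of all promoters.

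The promoters shown above differ in this feature. Krt32 has TATAAA at 2 places, and Krtap3-3 has TATATAA at -33, counted from the base before the start as -1. Krt84, with the most counts of the type II members, has no such letters within the 120 bases shown and TATAAA only at -206. Promoters of related members resemble each other and are not independent, and a match is a description of letters and nothing more.

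Other genes of the hair follicle were looked at as context, from lists chosen with earlier results of these data known. For each list, the calls stand beside 18.7% higher and 20.3% lower over all tested genes. Of 18 hair shaft transcription factors and signals, 14 were tested, and palatal had 7 higher and 3 lower. The median log2 fold change of these 14 was 0.25, beside 0.01 over all tested genes. Msx2, a homeobox factor of the mouse hair matrix, had a log2 fold change of 3.74 ± 0.11 (SE; edgeR adjusted p = 6.247e-12). Lef1, a Wnt pathway factor, averaged 2.87 ± 0.806 CPM in palatal and 0.182 ± 0.0936 CPM in buccal libraries (SD, n = 5 each; log2 fold change 3.95 ± 0.30, SE; edgeR adjusted p = 1.26e-07). Dlx3, a homeobox factor of the hair shaft, was higher by 1.15 ± 0.12 (SE; edgeR adjusted p = 2.064e-06), and Foxq1, needed for hair shaft differentiation in the mouse, was lower at -0.64 ± 0.07 (SE; edgeR adjusted p = 5.553e-06), both on the log2 scale. Hoxc13, a direct regulator of hair keratin genes, was near silent with 5 palatal and 0 buccal counts.

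Of 9 other hair shaft structural genes, 6 were tested, 3 were higher and 2 lower. Padi1, an enzyme that turns arginine to citrulline in structural proteins, averaged 167 ± 18.1 CPM in palatal and 77.5 ± 12.6 CPM in buccal libraries (SD, n = 5 each; edgeR adjusted p = 1.89e-06). S100a3, a calcium-binding protein of the hair cuticle, was higher at a log2 fold change of 1.05 ± 0.25 (SE; edgeR adjusted p = 0.004217). Dsc2 was lower at a log2 fold change of -0.30 ± 0.08 (SE, edgeR adjusted p = 0.007365). Tgm3 was lower at -0.34 ± 0.10 on the same scale (SE, edgeR adjusted p = 0.01096). Gprc5d, of the hair cortex, had no counts.

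Of 12 inner root sheath, companion layer and medulla genes, 3 were tested, 2 higher and 1 lower. Tchh, the trichohyalin of the inner root sheath and tongue papillae, averaged 35.1 ± 2.51 CPM in palatal and 7.71 ± 0.70 CPM in buccal libraries (SD, n = 5 each), a log2 fold change of 2.19 ± 0.08 (SE; edgeR adjusted p = 6.21e-11). Krt75, the companion layer keratin, was higher with a log2 fold change of 2.16 ± 0.37 (SE; edgeR adjusted p = 0.0007712). Gata3 was the gene that was lower, with a log2 fold change of -1.25 ± 0.25 (SE, edgeR adjusted p = 0.001116). Below the filter, the inner root sheath keratin Krt27 had 55 palatal and 7 buccal counts, and Padi3, a citrullinating enzyme, had 76 palatal and 15 buccal counts. Krt72 had no counts, and Krt25, Krt26, Krt28, Krt71, Krt73 and Krt74 had 10 counts or fewer on each side.

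**Figure D5:**
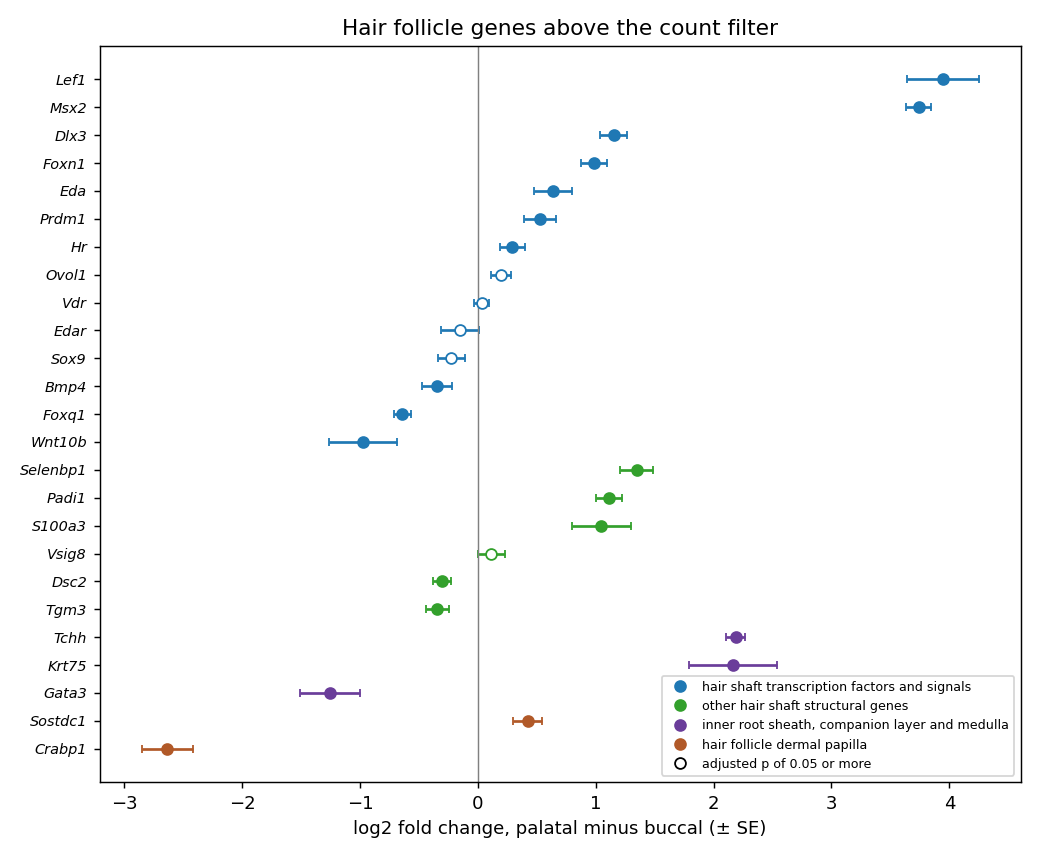
Log2 fold change, palatal minus buccal, with its SE, for each tested gene of 4 hair follicle lists, open where the edgeR adjusted p was 0.05 or more. Lef1 and Msx2 stand furthest right and Crabp1 furthest left.

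Markers of other cell types also moved between the sides, and their part in the members' differences was not tested. The 6 leukocyte markers summed to 47.5 to 60.0 CPM in palatal and 115 to 197 CPM in buccal libraries, with 1 higher and 5 lower. The 6 fibroblast markers summed to 70.1 to 89.1 CPM in palatal and 6.79 to 12.9 CPM in buccal libraries, with 1 called higher and 0 lower. That sum was mostly Dcn, at 73.3 CPM in palatal and 6.61 CPM in buccal libraries, while Col1a1 was 1.48 CPM in palatal and 1.87 CPM in buccal, Col1a2 1.12 CPM in palatal and 0.943 CPM in buccal, and Col3a1 1.27 CPM in palatal and 1.31 CPM in buccal. The 8 sebaceous markers summed to 33.5 to 44.6 CPM in palatal and 52.5 to 86.1 CPM in buccal libraries, mostly from Far2, with 1 higher, 2 lower and Elovl3 at 0. The 7 melanocyte markers reached 9.72 to 11.7 CPM in palatal and 3.77 to 6.77 CPM in buccal libraries, with 1 higher, 0 lower and Tyrp1 at 0. Kit, which other cell types also express, made up most of it, at 8.84 CPM in palatal and 4.35 CPM in buccal libraries, while Pmel was 0.266 CPM in palatal and 0.313 CPM in buccal.

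The 7 dermal papilla markers summed to 19.2 to 23.9 CPM in palatal and 16 to 24.4 CPM in buccal libraries, mostly from Sostdc1, with 1 higher, 1 lower and Corin at 0, and the 6 minor salivary gland markers to 2.91 to 60.5 CPM in palatal and 0.16 to 9.88 CPM in buccal libraries, mostly from Muc5b, with 0 called and Prol1 at 0. The taste bud markers summed to 13.1 to 14.9 CPM in palatal and 13.4 to 18.1 CPM in buccal libraries, mostly from Pou2f3, with 0 higher and 1 lower. Below the filter, the taste cell genes Gnat3, with 71 palatal and 0 buccal counts, and Trpm5, with 35 palatal counts and 1 buccal count, were counted mostly in palatal. Car4 had 6 palatal and 3 buccal counts. Of the tested taste bud markers, Pou2f3 was the lower one (edgeR adjusted p = 0.03095). Plcb2, with 184 palatal and 276 buccal counts, and Tas1r3, with 243 and 227, were not called (edgeR adjusted p = 0.1741 and 0.3719). Endothelial markers summed to 3.38 to 7.73 CPM in palatal and 3.67 to 6.9 CPM in buccal libraries, with 1 higher and 0 lower, and skeletal muscle markers to 1.91 to 4.98 CPM in palatal and 2.28 to 9.9 CPM in buccal libraries, with 0 higher and 2 lower. Of 26 soft epithelial keratins, 24 were tested, and 16 were higher and 6 lower in palatal, beside 18.7% higher and 20.3% lower of all tested genes.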

How the data were processed

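RNA of peeled palatal and buccal gingival epithelium was sequenced as stranded single-end libraries, per the labels' protocols. The deposited table holds, per the file headers, raw counts per gene made by the authors, and a normalized signal for 19834 genes, which on testing was each count over a single size factor for its library. GRCm39, DESeq2 1.36.0, HTSeq 2.01, TopHat2 2.1.1 and cutadapt 2.10 are listed, without their order or role, per the submitters' processing notes. For the counting, the strand and multi-read settings are not given in these sources. Of 55414 genes, 6250 were blank and left out, and 0 columns belonged to other samples.

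Libraries were grouped by the tissue label. Genes kept by filterByExpr (minimum count 10) were tested over the whole table with TMM scaling and edgeR's quasi-likelihood two-sided F-test at a Benjamini-Hochberg adjusted p of 0.05 (R 4.3.3 with edgeR 4.0.16, DESeq2 1.42.0 and limma 3.58.1), and the test was tested on simulated data. Fold changes are palatal minus buccal on the log2 scale, and the SE was taken as its size over the root of F. Of the counts in a library, 99.92% or more were in tested genes. Intervals and floors cover counting error only, as reads lacking molecular identifiers may be copies of 1 molecule. Shared 100-base windows were counted over GENCODE M21 transcripts.

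The members, the lists and the classes were chosen with earlier results of these data known. Every member passing the filter or with 10 or more counts was named, and up to 4 tested genes with the smallest p from a list, of which some are described, besides other list genes chosen after their values were seen. Alternatives were other scalings, filters, tests and thresholds, a replicate block, the omission of each library, and other limits for detection.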

Additional observations from a re-analysis of the deposited data

Results flagged for a closer look

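Of 31 groups of 5 libraries examined for a single value far from the others, 3 had one. Chance gives about 1 in 20 for normally distributed values. Low counts are not so distributed, so that rate does not hold for groups such as those of Krt34 and Krt83. Krtap3-3 was 15.6 CPM in palatal library 1, above the other palatal libraries at 13.4 to 13.9 CPM. Krt34 was 0.0346 CPM in buccal library 4, which is a single count where the other buccal libraries had 0. Krt83 was 0 CPM in buccal library 4, the only buccal library with no count of this gene.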

How the results depend on the processing

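The 7 members called kept their direction and their call under all alternatives in which they were tested, and Krt35 was not tested with at least 1 CPM in 5 libraries required. Krtap13 and Krt35 passed the main filter through 1 side alone, so their calls in filtered fits are given as a description. Log2 fold changes ran over 1.92 to 2.12 for Krt84, -1.46 to -1.28 for Krt32, -1.36 to -1.13 for Krt36, -1.06 to -0.80 for Krt35, 0.65 to 0.75 for Krtap3-3 and 1.46 to 1.64 for Krtap3-2. Krtap13, with no buccal count, ran more widely, over 7.35 to 10.53. The 7.35 came from limma-trend on log2 of the deposited normalized values plus 1. The adjusted p of Krt35 reached 0.0405. Leaving out each library gave 7 members called (4 higher, 3 lower), 4916 to 5399 genes called against 5474 with all libraries, 52 to 58 listed context genes against 57, 24 to 27 members with counts in palatal and 19 to 21 in buccal, and 40 to 43 silent members. Over the other settings, 6 to 9 members were called (9 without the filter), 3829 genes at an FDR of 0.01 and 5952 with DESeq2's Wald test.

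Detection depended on the limit used. Members with counts numbered 27 in palatal and 21 in buccal, 16 in palatal and 13 in buccal with more than 3 counts over the side required, and 13 in palatal and 10 in buccal with a mean of at least 0.1 CPM. The replicate numbers were not taken to pair the libraries, given correlations of -0.0226 to 0.328 between same-numbered libraries, and palatal libraries 1 and 4 alone correlated best with their own number. With the replicate block, 5518 genes, 56 context genes and 7 members were called. Depth limits what can be said of the members under 10 counts.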
